A study of Mus musculus with 14 samples.

Results

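Acolbifene given alone was compared with vehicle in mammary glands of ovariectomized mice, over the 2 arrays labelled acolbifene and the 2 labelled vehicle, which are 4 of the 14 arrays of the series. The arrays were chosen by their treatment label, and every probe set was a member of the comparison. All mice were female C57BL/6, 11 to 12 weeks old on arrival, acclimatized for 1 week, ovariectomized 7 days before treatment and killed 3 h after it. The groups used here were vehicle, acolbifene (given as EM-652.HCl), 17-beta-estradiol (E2) and E2 given together with acolbifene, with 2 arrays each. Fulvestrant, raloxifene and tamoxifen (as citrate), each with and without E2, had 1 array each and are given as values with no test. None of the groups carried a transgene or a deletion by the labels, and all shared the loss of the ovaries. The dose of acolbifene is not given in the sources used here. Glands of the 8 mice of a group were pooled and 20 ug of RNA was labelled for an array. Whether both arrays of a group were made from different pools is not stated, so p-values measure the spread between these arrays, which may be technical. In bulk tissue, fewer cells of a type and less RNA per cell cannot be told apart.

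Acolbifene is a nonsteroidal ligand of the estrogen receptors that blocks the action of estradiol in the mammary gland and uterus. The receptors are transcription factors: bound to an agonist they recruit coactivators and raise targets such as the progesterone receptor gene, whereas antagonists hold the ligand-binding domain in a shape that favours corepressors. After ovariectomy little circulating estrogen is left, so acolbifene given alone meets receptors with little of their natural ligand.

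Among the genes that were higher with acolbifene were 3 CXC chemokines and Serpinb2, which encodes plasminogen activator inhibitor 2, a serpin made by macrophages and epithelia under inflammatory stimuli. The promoters of 3 of these 4 genes were present in the RefSeq table of GRCm38.p6, each as 250 bases before to 50 bases after the transcription start, and Cxcl5 is named only. They are shown because these genes belong to the group of inflammatory genes described below. Capitals mark matches to the consensus site of NF-kB (10 bases) and to TATAAA, searched on both strands. The windows are chr1:107511173-107511472 for Serpinb2, which has 2 windows in the table, chr5:90903649-90903948 for Cxcl2 and chr5:90785851-90786150 for Cxcl3, all on the plus strand, 5′ to 3′.
Serpinb2: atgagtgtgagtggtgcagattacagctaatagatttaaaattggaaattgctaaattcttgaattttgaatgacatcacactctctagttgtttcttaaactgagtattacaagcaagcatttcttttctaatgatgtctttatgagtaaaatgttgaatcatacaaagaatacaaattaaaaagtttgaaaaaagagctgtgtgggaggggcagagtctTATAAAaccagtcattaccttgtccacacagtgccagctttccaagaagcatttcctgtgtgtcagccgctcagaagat
Cxcl2: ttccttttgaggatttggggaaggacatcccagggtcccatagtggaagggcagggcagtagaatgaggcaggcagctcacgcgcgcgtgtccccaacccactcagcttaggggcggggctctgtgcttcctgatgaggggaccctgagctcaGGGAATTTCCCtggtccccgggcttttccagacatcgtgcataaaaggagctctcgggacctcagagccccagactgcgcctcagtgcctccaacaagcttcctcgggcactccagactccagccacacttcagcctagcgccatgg
Cxcl3: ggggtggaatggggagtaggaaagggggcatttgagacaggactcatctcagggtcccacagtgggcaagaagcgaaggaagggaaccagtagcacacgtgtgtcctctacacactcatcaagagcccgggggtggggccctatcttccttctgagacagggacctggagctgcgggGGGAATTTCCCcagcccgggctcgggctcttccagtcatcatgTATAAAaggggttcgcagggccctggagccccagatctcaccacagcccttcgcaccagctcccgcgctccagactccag
The NF-kB consensus started 97 bases upstream of the start in Cxcl2 and 73 bases upstream in Cxcl3, and in both the run of capitals reads as a match on either strand. TATAAA started 29 bases upstream in Serpinb2 and 30 bases upstream in Cxcl3. The NF-kB consensus was present in 5.14% of 27025 genes with such a window and TATAAA in 15.7%. Of the 106 genes called higher with acolbifene that had a window, 8 held the NF-kB consensus (7.55%), as did 1 of 46 genes called lower (2.17%). TATAAA was present in 23 of the 106 (21.7%) and in 12 of the 46 (26.1%). These matches describe the letters only.

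Across the 45037 probe sets tested, limma called 183 higher with acolbifene (0.406%) and 86 lower (0.191%) at a Benjamini-Hochberg adjusted p under 0.05. These 269 probe sets (0.597%) named 202 genes, and 132 of the probe sets differed by at least 1.5-fold. With each gene taken at its brightest probe set, 99 of 18193 genes were higher (0.544%) and 44 lower (0.242%), and the median difference over all genes was 0.03 log2. The count was lower in each fit that left out a single array, also an array outside the comparison. Such fits have fewer arrays from which to estimate the spread, so a lower count does not single out an array. Leaving out vehicle array 1 gave 27 calls and leaving out vehicle array 2 gave 51, and the fits that lacked acolbifene array 1 or 2 gave 27 and 64. Of the 30 genes named for their size of change, 10 stayed called in every alternative that tested them: Arg1, C1qtnf3, Clec4d, Col12a1, Cxcl3, Fam107a, Fkbp5, Prol1, Serpinb2 and Thbs1. The fit without dim probe sets did not test Arg1, C1qtnf3, Cxcl3, Fam107a or Prol1, whose probe sets it removed. Of list members, Ccn2, Mmp12, Plod2 and Zbtb16 also did, whereas most other calls given below were lost in at least 1 fit that left out a vehicle or an acolbifene array. With only the 4 arrays of the comparison in the fit, 110 probe sets were called. Quantile normalization of the 8 arrays again gave 118 higher and 96 lower.

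**Figure D1:**
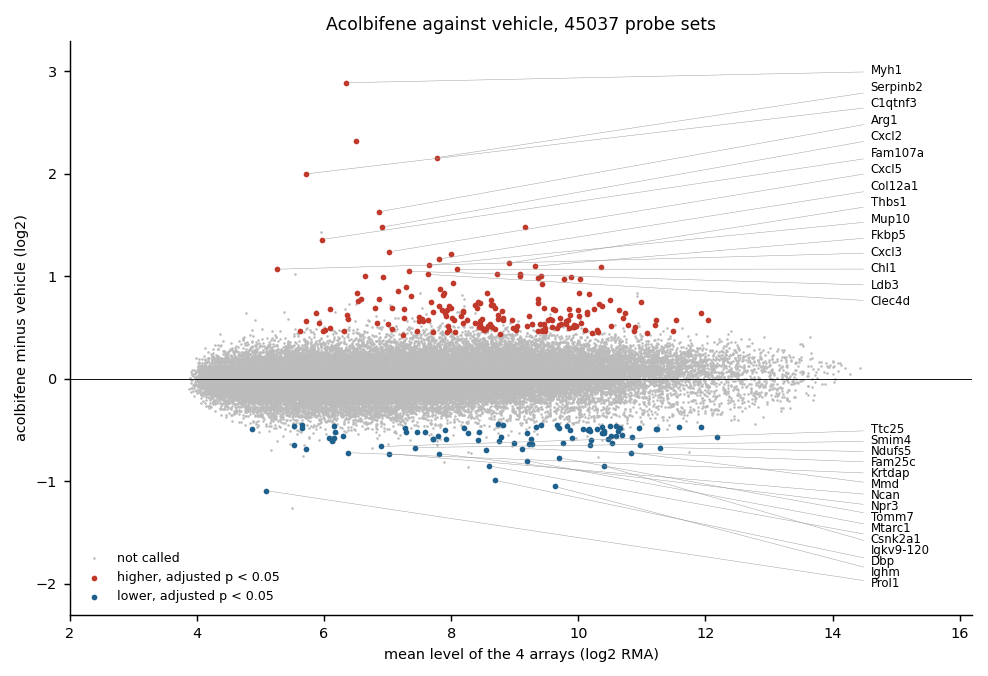
Difference between acolbifene and vehicle (log2, vertical axis) against the mean level of the 4 arrays (log2 RMA, horizontal axis) for each of the 45037 probe sets, with the 183 called higher in red, the 86 called lower in blue and the others in grey. The 15 largest rises and 15 largest falls are named; Myh1 at 2.89 and Serpinb2 at 2.16 stand above the rest, whereas no called fall exceeds 1.09.

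Array medians of the series lay between 7.16 and 7.23, the hybridization spikes of the vehicle and acolbifene arrays between 10.06 and 10.18, and the excess of the 3′ over the 5′ probe set of Actb, a sign of RNA quality, between 0.24 and 0.30. The same excess of Gapdh was 0.06 on both vehicle arrays and -0.02 and 0.02 with acolbifene, and the SD of the levels of an array was 1.97 and 1.98 against 2.01 and 2.00, both without overlap. Their part in the results was not tested. The pair of vehicle arrays differed by over 1.5-fold at 111 probe sets and the acolbifene pair at 153. All 4 carried the raw-file code R137, as did both E2+acolbifene arrays and E2 array 2. E2 array 1 and the 6 arrays of treatments with 1 array carried R136. The spikes of these 7 arrays and of E2 array 2 lay between 9.57 and 9.81. Levels set against those arrays below therefore also cross this code or this spike range, whose part in such differences was not tested. The raw-file names of the raloxifene array and of both E2+acolbifene arrays share a further part although their labels differ, and what that part stands for was not tested. Tissue markers were present: the summed linear level of 18 measured luminal epithelial markers was 14070 and 14138 with vehicle against 15071 and 14623 with acolbifene, and 0 of them were called.

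Serpinb2 was at 6.61 and 6.80 (log2 level) on the vehicle arrays and at 8.88 and 8.85 on the acolbifene arrays. The groups did not overlap, and the difference was 2.16 ± 0.13 log2 (SE, n = 2 arrays per group, limma adjusted p = 0.000135). It was at 6.96 and 6.65 with E2+acolbifene, 7.03 and 6.70 with E2, 6.49 with tamoxifen, 7.45 with fulvestrant and 7.67 with raloxifene. The E2+raloxifene array, at 8.87, was the only other array at the level of acolbifene. Against E2, acolbifene was higher by 2.00 ± 0.13 (limma adjusted p = 2.7e-05), and E2+acolbifene was below acolbifene (-2.06 ± 0.13, limma adjusted p = 0.000232). Here and below, both of these comparisons reuse the 2 acolbifene arrays by which such genes were picked, so they are not independent of the difference from vehicle.

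Chemokines that attract neutrophils were next. Cxcl2 was at 6.02 and 6.32 with vehicle and at 7.76 and 7.54 with acolbifene, a difference of 1.48 ± 0.17 (limma adjusted p = 0.00376). Cxcl5 was at 6.45 and 6.38 against 7.74 and 7.56 (1.24 ± 0.15, limma adjusted p = 0.0061), and Cxcl3 at 4.84 and 4.62 against 5.97 and 5.63 (1.07 ± 0.12, limma adjusted p = 0.00376). In each the acolbifene arrays lay above both vehicle arrays, but the vehicle levels were dim, below the 40th percentile of mean level (6.65), so the size of the fold is not exact. Cxcl3 was dim with acolbifene as well. The calls of Cxcl2 and Cxcl5 were lost in fits without vehicle array 1 or acolbifene array 1, and that of Cxcl5 also without vehicle array 2 (largest adjusted p = 0.058 and 0.0772 over their alternatives). Cxcl1, a further ligand of the same receptor, was at 8.97 and 9.12 against 9.06 and 9.06, a difference of 0.01 ± 0.09 (limma adjusted p = 0.967). Of the 8 measured chemokines of this kind, 3 were higher and 0 lower, with a median of 0.10. Counts of called list members, here and below, compare with 0.544% of all genes higher and 0.242% lower.

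On the other arrays these 3 chemokines followed the order seen for Serpinb2 in part. Cxcl2 was at 7.52 with fulvestrant, 7.64 with raloxifene and 7.66 with E2+raloxifene, and at 6.72 with tamoxifen. With E2+acolbifene it was at 6.21 and 5.80, at or below the range of vehicle. Acolbifene was higher than E2 for Cxcl2 (1.22, limma adjusted p = 0.0044), Cxcl5 (1.25, adjusted p = 0.00219) and Cxcl3 (1.13, adjusted p = 0.00114). E2+acolbifene was below acolbifene for all 3, by -1.65, -1.67 and -1.04.

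**Figure D2:**
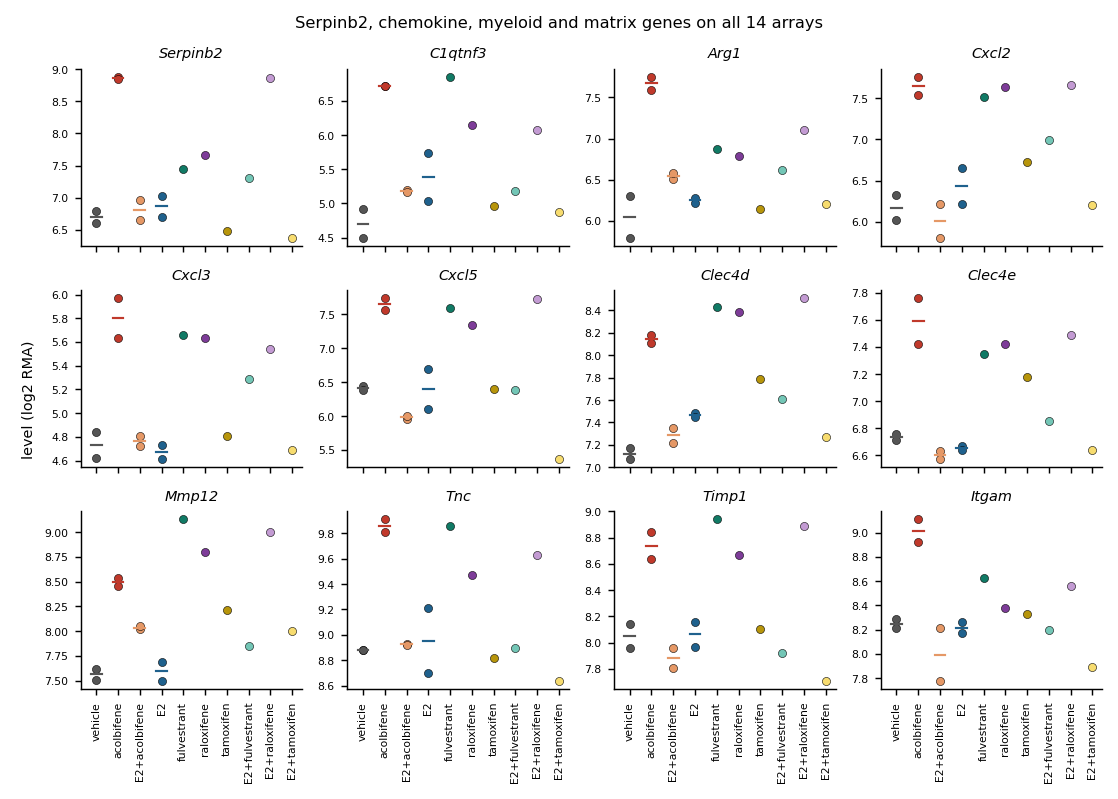
Levels (log2 RMA, vertical axes) of 12 genes on each of the 14 arrays, 1 point per array, grouped by treatment, with a bar at the mean where a group has 2 arrays. The acolbifene points stand above both vehicle points in every panel, the fulvestrant, raloxifene and E2+raloxifene points are also raised for most genes, and the E2+acolbifene points of Serpinb2 (6.96 and 6.65) lie near vehicle.

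Some myeloid genes also passed the test. Clec4d, a C-type lectin receptor of myeloid cells, was at 7.07 and 7.17 against 8.11 and 8.18 (1.02 ± 0.09, limma adjusted p = 0.00131). Its relative Clec4e, which senses damaged cells and mycobacterial lipid, was at 6.76 and 6.71 against 7.42 and 7.76 (0.86 ± 0.11, adjusted p = 0.00727). Itgam, the alpha chain of an integrin of macrophages and neutrophils, was at 8.21 and 8.29 against 9.11 and 8.92 (0.77 ± 0.13, adjusted p = 0.0269). Both acolbifene arrays of Itgam were above the other 12 arrays of the series, but its call was lost in 9 of 17 alternatives. Among these were quantile normalization again and each fit that left out a vehicle, an acolbifene or an E2 array. Here and below, some of the 17 are the same fit for this comparison, as given under processing.

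Of 17 measured neutrophil markers, 3 were higher (Clec4d, Clec4e and Csf3r) and 0 lower, with 9 positive and 8 negative differences and a median of 0.16. The call of Csf3r was lost in 13 of 17 alternatives. Among the markers that did not pass the test, S100a8 was at 9.54 and 9.45 against 9.20 and 9.18, and S100a9 at 9.35 and 9.31 against 9.18 and 9.14. Ngp was at 8.32 and 8.26 against 7.40 and 7.54 and did not pass either (-0.81 ± 0.20, limma adjusted p = 0.10). For these 3 genes both acolbifene arrays were below both vehicle arrays. Over the 17 markers, each at its brightest probe set, the acolbifene arrays lay above both vehicle arrays for 9 and below both for 6. Over all probe sets these shares were 26.8% and 20.0%. The summed linear level of the neutrophil list was 5827 and 5674 with vehicle and 6022 and 6148 with acolbifene, and its part in the chemokine result was not tested. Il1b, the inflammatory cytokine interleukin-1 beta, was at 7.79 and 7.73 against 8.80 and 8.36 and did not pass (0.82 ± 0.16, limma adjusted p = 0.0526). Its receptor gene Il1r1 did (0.68, adjusted p = 0.00708).

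Of 21 measured macrophage markers 3 were higher, Cd14, Cd163 and Itgam, and 0 lower, against 0.544% and 0.242% of all genes. Their median was 0.21. The summed linear level of that list was 50326 and 50717 with vehicle and 59828 and 58385 with acolbifene, without overlap. Cd163, a scavenger receptor for haemoglobin, was at 9.65 and 9.66 against 10.19 and 10.14 (0.51 ± 0.08, limma adjusted p = 0.022), and no other array of the series exceeded 9.66. Among 27 genes of alternatively activated macrophages, 5 were higher, namely Arg1, Cd163, Mgl2, Gpnmb and Irf4, and 0 lower. Arg1, the arginase that turns arginine into ornithine and urea, was at 6.30 and 5.79 against 7.75 and 7.59 (1.63 ± 0.14, limma adjusted p = 0.00131). Its acolbifene arrays were above all other 12, of which E2+raloxifene was the highest at 7.11.

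C1qtnf3, a secreted protein of the C1q and TNF family made by fat and connective tissue, was at 4.92 and 4.49 with vehicle and at 6.71 on both acolbifene arrays (2.00 ± 0.19, limma adjusted p = 0.00175, from a dim level). Fulvestrant, at 6.85, was the only array above them. Of 44 measured collagen and matrix assembly genes 6 were higher, 0 lower and 38 did not pass, 40 differences were positive, and the median was 0.30 against 0.03 over all genes. Acolbifene arrays lay above both vehicle arrays for 38 of the 44, whereas 26.8% of all probe sets did so. Here and below, shares without overlap are over all probe sets, whereas list genes were taken at their brightest probe set. The 6 calls became 2 without either vehicle array or acolbifene array 1, and 3 without acolbifene array 2. Fibroblast markers had 0 calls in 20, with 18 positive differences and 15 genes above both vehicle arrays. Their summed linear level was 100029 and 104003 with vehicle against 119710 and 116380 with acolbifene, and its part in the matrix result was not tested.

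Thbs1, which encodes thrombospondin 1, a matricellular protein that activates latent TGF-beta, was at 8.43 and 8.27 against 9.57 and 9.38 (1.13 ± 0.10, limma adjusted p = 0.00152). It was above vehicle on all 12 other arrays, E2 among them at 9.57 and 9.71. Plod2, which hydroxylates lysines of collagen for cross-linking, was likewise above vehicle on all 12 (9.23 and 9.36 against 10.24 and 10.29, adjusted p = 0.00152). Tenascin C, encoded by Tnc, differed from these: it was at 8.88 on both vehicle arrays and at 9.91 and 9.81 with acolbifene (0.98 ± 0.14, limma adjusted p = 0.0109), but at 8.93 and 8.92 with E2+acolbifene. Lox, Thbs4 and Vcan made up the 6. Col12a1, a collagen that binds along fibrils, was higher at the probe set with the largest change (7.24 and 7.22 against 8.39 and 8.41, 1.17 ± 0.11, limma adjusted p = 0.00175). Its brightest probe set gave 0.44 and did not pass (adjusted p = 0.0834).

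Of 26 matrix proteases and inhibitors 4 were higher and 0 lower, against 0.544% and 0.242% of all genes, with a median of 0.25. Mmp12, the elastase of macrophages, was at 7.51 and 7.62 against 8.46 and 8.54 (0.94 ± 0.10, limma adjusted p = 0.00198). Timp1, an inhibitor of matrix metalloproteinases, was at 7.96 and 8.14 against 8.84 and 8.64 (0.69 ± 0.11, adjusted p = 0.0224). Both were also high with fulvestrant, at 9.13 for Mmp12 and 8.94 for Timp1, and with raloxifene, at 8.80 and 8.67. The other called members were Adam12 and Adamts1.

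Glucocorticoid-responsive genes were the list with the most calls. Of 33 measured genes 13 were higher and 0 lower, against 0.544% and 0.242% of all genes. The acolbifene arrays lay above both vehicle arrays for 27, whereas 26.8% of all probe sets did so. Of the differences 32 were positive, against 56.3% over all genes, and the median was 0.45 against 0.03. Quantile normalization again gave a median of 0.38. The 13 calls became 3 without vehicle array 1, 5 without vehicle array 2, 2 without acolbifene array 1 and 5 without acolbifene array 2. The list was also above vehicle on the 10 arrays of the other treatments, with medians from 0.12 to 0.52. Both E2 arrays, at 0.52 and 0.47, exceeded both acolbifene arrays, at 0.41 and 0.39. Members of the list are known targets of the glucocorticoid receptor, many of which also respond to other stimuli. Of the 13 called genes, 6 (Cd163, Errfi1, Cdkn1a, Per1, Sgk1 and Dusp1) belong to a further list.

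Fkbp5, which encodes a co-chaperone that lowers the hormone affinity of the glucocorticoid receptor, was at 8.73 and 8.81 with vehicle and 9.89 and 9.86 with acolbifene (1.10 ± 0.08, limma adjusted p = 0.000702). Both acolbifene arrays were above the other 12, and the call held in every alternative run. Fkbp5 was higher than with E2 as well (0.45, adjusted p = 0.0162) and lower with E2+acolbifene than with acolbifene (-0.54, adjusted p = 0.0102). Tsc22d3, which encodes the leucine zipper protein GILZ, was at 10.35 and 10.26 against 10.99 and 10.96 (0.67 ± 0.09, adjusted p = 0.00869), and Per1, a repressor of the circadian clock, at 9.10 and 9.12 against 9.88 and 9.73 (0.69 ± 0.09, adjusted p = 0.00946). For both the acolbifene arrays were the highest of the series. Other members were at similar levels with E2: Sgk1, a kinase that regulates ion transport, was at 11.06 and 10.94 with acolbifene and 11.09 and 11.18 with E2, against 10.35 and 10.46 with vehicle. Zbtb16, a zinc finger repressor, was at 9.53 and 9.56 with vehicle, 10.51 and 10.52 with acolbifene and 10.75 with tamoxifen.

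**Figure D3:**
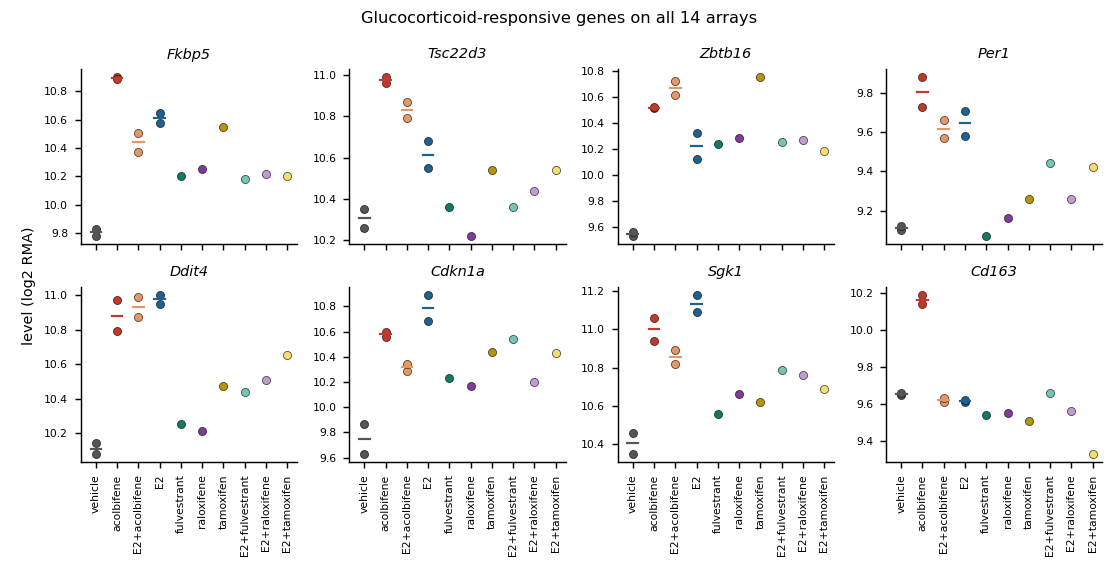
Levels (log2 RMA, vertical axes) of 8 glucocorticoid-responsive genes on each of the 14 arrays, 1 point per array, at each gene's brightest probe set, with a bar at the mean of groups with 2 arrays. Fkbp5, Tsc22d3, Per1 and Cd163 have their highest points with acolbifene, whereas Zbtb16, Ddit4, Cdkn1a and Sgk1 reach similar or higher levels on arrays of other treatments.

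Clock genes had calls in both directions: of 21 measured 3 were higher (Npas2, Per1 and Nfil3) and 1 lower. The lower gene was Dbp, an output factor of the clock, at 9.16 and 9.22 against 8.21 and 8.18 (-0.99 ± 0.13, limma adjusted p = 0.00712). Dbp was below both vehicle arrays on all 12 other arrays, with 8.02 and 8.48 on the E2 arrays.

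Interferon-inducible GTPases, which act against intracellular pathogens, formed a group chosen by symbol after the values were seen. All 10 measured members lay above both vehicle arrays with acolbifene, against 26.8% of all probe sets, and 2 passed the test, with a median of 0.35. Gbp6 was at 10.43 and 10.40 against 11.08 and 11.03 (0.64 ± 0.08, limma adjusted p = 0.00752). Iigp1 was at 11.59 and 11.64 against 12.28 and 12.23 (0.64 ± 0.10, adjusted p = 0.0179). On the arrays of the other treatments the median of the group was between -0.39 and -0.05. Both genes were higher with acolbifene than with E2 (0.68 and 0.83, adjusted p = 0.00225 and 0.00205) and lower with E2+acolbifene than with acolbifene (-0.86 and -0.96). The broader list of 31 interferon response genes had the same 2 calls and a median of 0.08.

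Genes of the respiratory chain and ATP synthase, likewise grouped after the values were seen, shared the lowest list median with brown adipocyte markers. Of 79 measured subunits 0 were higher and 5 lower, 73 differences were negative, 61 had both acolbifene arrays below both vehicle arrays against 20.0% of all probe sets, and the median was -0.21. Ndufs5, an accessory subunit of complex I, was at 11.62 on both vehicle arrays and at 11.02 and 10.88 with acolbifene (-0.67 ± 0.09, limma adjusted p = 0.00946). Atp5md, a small subunit of ATP synthase, was at 10.85 and 10.91 against 10.32 and 10.31 (-0.56 ± 0.09, adjusted p = 0.0173). Ndufa2, Ndufa5 and Cox8b were the other 3, and for all 5 the acolbifene arrays were the lowest of the series. The 5 calls became 0 in each fit that left out a vehicle or an acolbifene array. The core subunits Atp5a1 and Atp5b were not lower, at 0.15 and 0.16, and did not pass. The list was below vehicle on the other 10 arrays too, with medians from -0.23 to -0.02.

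**Figure D4:**
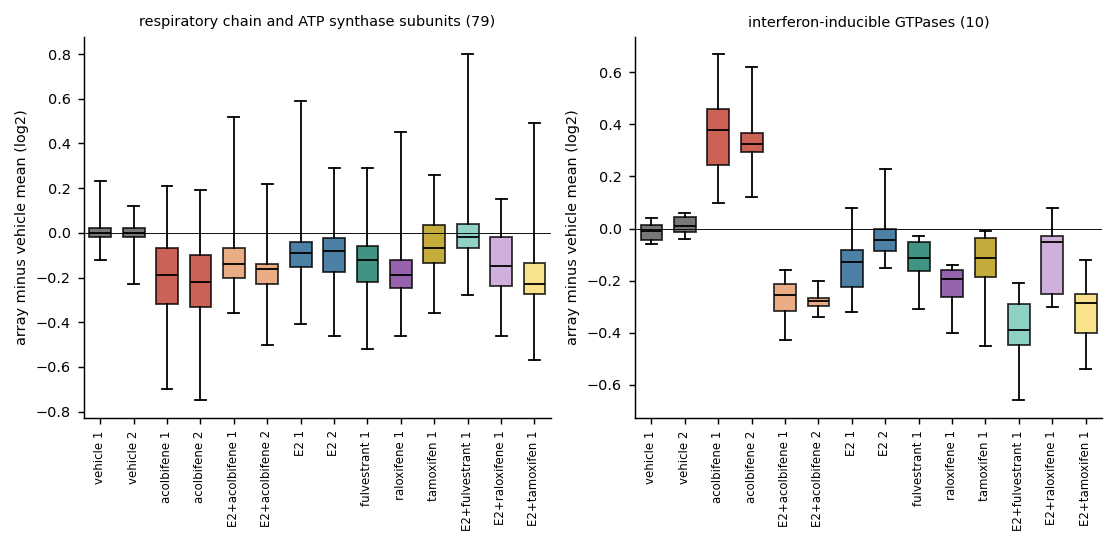
Differences from the vehicle mean (log2, vertical axes) of 79 respiratory chain and ATP synthase genes and of 10 interferon-inducible GTPases on each of the 14 arrays. Boxes span the quartiles with a line at the median and whiskers reach the lowest and highest member. The median of the GTPases is above vehicle on the acolbifene arrays only, and all members lie below it with E2+acolbifene. Respiratory chain medians are -0.19 and -0.22 on the acolbifene arrays. On arrays of the other treatments they lie from -0.23 to -0.02, lowest with E2+tamoxifen.

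Ribosomal protein genes had negative medians as well. Of 76 mitochondrial ribosomal proteins 66 differences were negative, with a median of -0.17 and 0 calls, and of 43 cytosolic ribosomal proteins 31 were negative, with a median of -0.12 and 0 calls. Tomm7, a small subunit of the import pore of the outer membrane, was at 10.07 and 10.11 against 9.41 and 9.22 at its called probe set (-0.77 ± 0.10, limma adjusted p = 0.00752). The brightest probe set of Tomm7 gave -0.41 (adjusted p = 0.068). Brown adipocyte markers had 1 call in 14, Cox8b, and a median of -0.21, which moves beside the respiratory chain result and whose part in it was not tested.

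Of 20 genes of cholesterol synthesis 0 were higher and 2 lower, against 0.544% and 0.242% of all genes, with a median of -0.19. In 15 of the 20 both acolbifene arrays were below both vehicle arrays, against 20.0% of all probe sets. The list was below vehicle on the 10 arrays of the other treatments too, with medians from -0.47 (E2+raloxifene) to -0.15 (E2+fulvestrant). The acolbifene arrays, at -0.18 each, were nearer to vehicle than most of these. Fdps, which makes farnesyl diphosphate, was at 10.54 and 10.49 against 9.94 and 9.78 (-0.65 ± 0.10, limma adjusted p = 0.0146). Sqle, the squalene epoxidase, was at 10.44 and 10.42 against 9.95 and 9.89 (-0.51 ± 0.08, adjusted p = 0.0225). Both genes were below vehicle on all 12 other arrays.

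Skin genes had 3 calls lower in 25 and 0 higher, against 0.242% and 0.544% of all genes. For 13 of the 25 both acolbifene arrays were below both vehicle arrays, against 20.0% of all probe sets. Krtdap, a secreted protein of differentiating keratinocytes, was at 6.81 and 6.66 against 5.95 and 6.09 (-0.72 ± 0.10, limma adjusted p = 0.0138), and Krt10, a keratin of the suprabasal epidermis, at 7.94 and 8.07 against 7.52 and 7.31 (-0.59 ± 0.10, adjusted p = 0.0271). The other call was Fam25c. The acolbifene arrays of Krtdap and Fam25c were the lowest of the series. The summed linear level of the skin list was 5099 and 5069 with vehicle, 4535 and 4629 with acolbifene and up to 7220 with E2, and its part in these falls was not tested.

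Myh1, the myosin heavy chain of fast muscle fibres, gave the largest difference. It was at 4.84 and 4.95 with vehicle and at 7.77 and 7.80 with acolbifene (2.89 ± 0.35, limma adjusted p = 0.00541), from a dim level. It was above vehicle on all 12 other arrays, up to 9.40 with E2 and with E2+acolbifene. A further probe set of Myh1 gave 2.32 (limma adjusted p = 0.0139) and the dimmest gave -0.03 and did not pass (adjusted p = 0.949). Of 26 skeletal muscle markers only Myh1 was called, and the median was -0.03. Ckm, the muscle creatine kinase, was at 10.78 on both vehicle arrays and at 10.57 and 10.58 with acolbifene. Ldb3, a protein of the muscle Z-disc, was at 6.91 and 6.71 against 8.00 and 7.72 (1.05 ± 0.16, adjusted p = 0.0173) at 1 of its 3 probe sets. Its brightest probe set gave -0.05 (adjusted p = 0.925) and the other 0.42 (adjusted p = 0.192), and neither passed.

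The largest falls were in part matters of 1 probe set. Ighm, the immunoglobulin mu constant region, was lower at a single probe set of 11 (10.24 and 10.06 against 8.99 and 9.21, -1.05 ± 0.12, limma adjusted p = 0.00376), and at its brightest the difference was -0.10 (adjusted p = 0.688). A kappa variable immunoglobulin gene was lower at its brightest probe set (10.75 and 10.91 against 10.03 and 9.92, -0.85, limma adjusted p = 0.00712). Its other probe sets gave 0.05 and -0.18 and did not pass. Lymphocyte markers had 0 calls in 22, 19 negative differences and a median of -0.10. The acolbifene arrays lay below both vehicle arrays for 13 and above both for 2, against 20.0% and 26.8% of all probe sets. The summed linear level of that list was 34517 and 34529 with vehicle and 32241 and 30481 with acolbifene. Its part in these falls was not tested. Csnk2a1 and Mmd were lower at 1 probe set each (-0.85 and -0.72), and their brightest gave 0.08 and 0.11. Prol1 was at 5.44 and 5.80 against 4.51 and 4.56 (-1.09 ± 0.11, adjusted p = 0.00209), dim in both groups, and its other probe set gave -0.06 (adjusted p = 0.81). At the first probe set it was below vehicle on all 12 other arrays.

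Few estrogen receptor targets passed the test against vehicle. Of 31 measured targets 1 was higher, Sgk1, which is also glucocorticoid-responsive, and 0 lower, with a median of 0.09. Of the differences 24 were positive, against 56.3% over all genes. The acolbifene arrays lay above both vehicle arrays for 18 and below both for 1, against 26.8% and 20.0% of all probe sets. Pgr, the progesterone receptor, was at 8.05 and 7.57 with vehicle and at 8.81 and 8.38 with acolbifene, without overlap, but did not pass (0.78 ± 0.16, limma adjusted p = 0.0546). With E2 it was at 10.59 and 10.55, above acolbifene (-1.98 ± 0.16 for acolbifene minus E2, adjusted p = 0.000129), and with fulvestrant at 7.88, raloxifene at 9.41 and tamoxifen at 9.57. Esr1 differed from vehicle by -0.04 and Esr2 by -0.02 (adjusted p = 0.882 and 0.966).

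Against E2, acolbifene differed at 1922 of 45037 probe sets (4.27%), 1121 higher (2.49%) and 801 lower (1.78%). Krt4, a keratin of stratified epithelia, was at 7.19 and 7.20 with acolbifene and 10.95 and 10.38 with E2 (-3.47 ± 0.15, limma adjusted p = 2.1e-06), while vehicle was at 7.11 and 6.97. Acot1, an acyl-CoA thioesterase, was lower than with E2 (-2.42), as were F3, the tissue factor of coagulation (-2.20), and Mfsd4a (-2.16). Foxa1, a pioneer factor of luminal cells, was higher than with E2 (10.52 and 10.40 against 8.56 and 9.29, 1.53 ± 0.18, adjusted p = 0.00205), as was Mtmr7, a phosphoinositide phosphatase (1.78). These 6 genes were not called between acolbifene and vehicle. The largest rises over E2 also held Serpinb2, Arg1 and C1qtnf3. Quantile normalization again turned the split of calls to 593 higher and 842 lower, and 215 probe sets were called without E2 array 1, that is with R137 arrays only. Fitting the code as a covariate over the 14 arrays gave 215 as well, since E2 array 1 is the only R136 array of a group with R137 arrays.

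E2+acolbifene and acolbifene differed at 4142 probe sets (9.20%), 1587 higher with E2 present (3.52%) and 2555 lower (5.67%). Under quantile normalization again the count was 1154, with 665 higher and 489 lower, and with each array shifted to the same median it was 6210, with 1224 higher and 4986 lower. The largest falls with E2 present included Serpinb2, Cxcl5, Cxcl2, C1qtnf3 and Slfn4, an interferon-inducible gene of myeloid cells (-1.54, limma adjusted p = 0.0052). The largest rises included Acot1 (1.47), Actn2, a muscle actinin (1.43), the cornified envelope gene Lor (adjusted p = 0.00169) and Myh1 (1.54 at another probe set). Skeletal muscle markers had a median of 0.69 and 0.76 over vehicle on the E2+acolbifene arrays and skin markers were also higher there, and their part in these rises was not tested.

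The response to acolbifene was also set against that in the presence of E2 (E2+acolbifene minus E2), which shares no array with acolbifene minus vehicle. Of the 183 probe sets called higher, 49 (26.8%) were positive there, compared with 54.3% of all probe sets, and of the 86 called lower 46 (53.5%) were negative, compared with 45.7%. Tested directly, the acolbifene effect differed with and without E2 at 2011 probe sets (4.47%), 697 positive (1.55%) and 1314 negative (2.92%). Levels on the other arrays split the calls further. Both acolbifene arrays were above the other 12 for 75 of the 183 (41.0%, against 9.01% of all probe sets) and below them for 45 of the 86 (52.3%, against 4.26%). All 12 other arrays were above vehicle for 73 of the 183 (39.9%, against 2.48%) and below it for 54 of the 86 (62.8%, against 3.76%), so that for these the vehicle arrays stood apart from every other array of the series. The calls were themselves chosen by the vehicle and acolbifene levels, which raises these shares, so nothing is read from their distance to those of all probe sets.

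**Figure D5:**
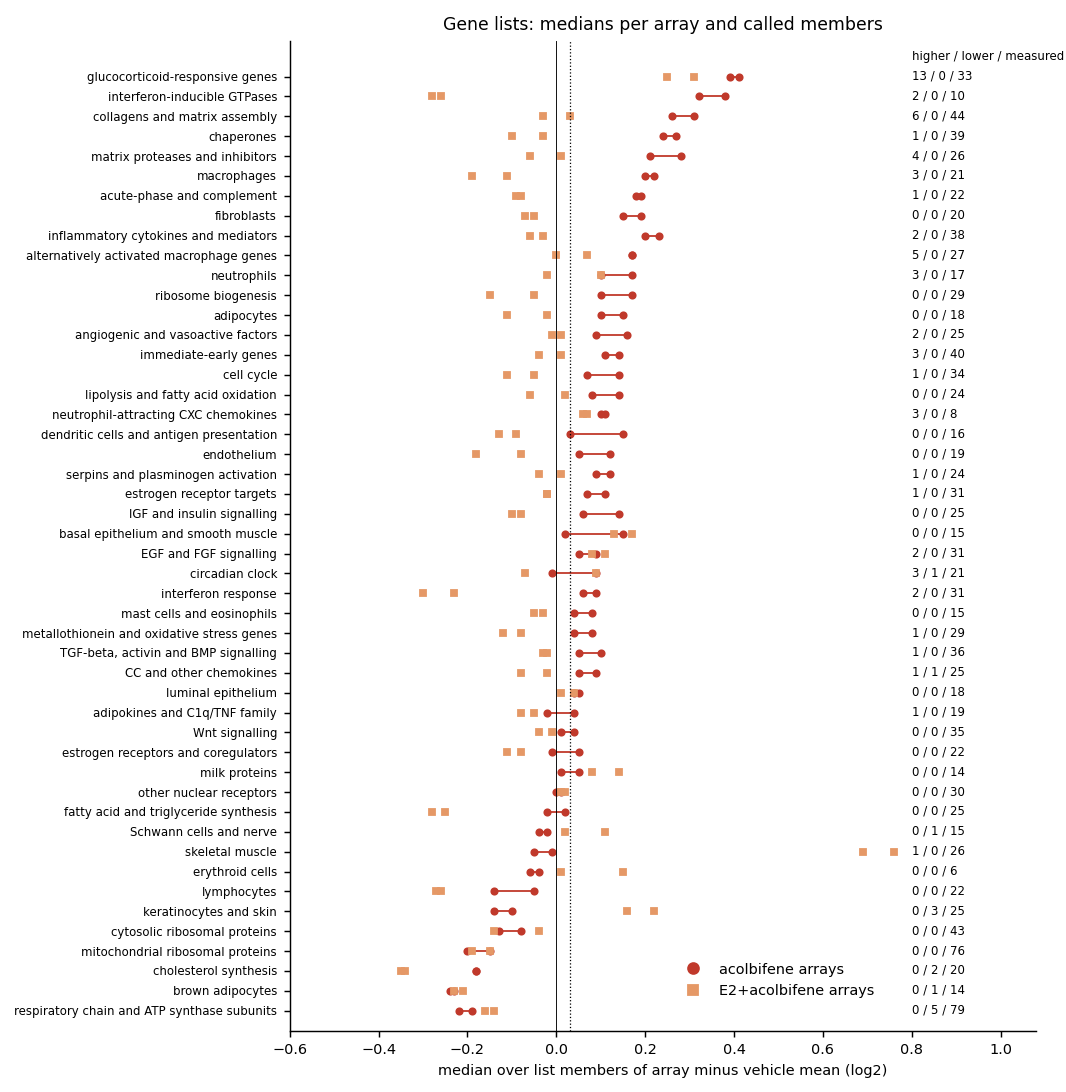
Median over list members of the difference from the vehicle mean (log2, horizontal axis) on each acolbifene array (red circles, joined) and each E2+acolbifene array (orange squares) for 48 gene lists, with the dotted line at the median of all genes (0.03). Numbers at the right give members called higher, called lower and measured for acolbifene against vehicle; glucocorticoid-responsive genes (13, 0 and 33) have the highest median and brown adipocyte markers (0, 1 and 14) the lowest on both acolbifene arrays, next to respiratory chain genes (0, 5 and 79).

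Further lists had few calls. Chaperones had 1 of 39 higher, Hspa1b, with a median of 0.25 and 32 of the 39 above both vehicle arrays, against 26.8% of all probe sets. Immediate-early genes had 3 of 40 higher, among them Ccn2, a matricellular protein (8.11 and 8.31 against 9.26 and 9.18, 1.02 ± 0.09, limma adjusted p = 0.00152). Hmox1, the haem oxygenase, was higher (8.90 and 8.92 against 9.88 and 9.95, adjusted p = 0.0193), and Ptx3, an acute-phase pentraxin, was higher by 0.78 at its brightest probe set, whereas its other, dim probe set was lower (6.44 and 6.29 against 5.75 and 5.83, -0.58, limma adjusted p = 0.0486). Luminal and basal epithelium, milk proteins, adipocytes, endothelium, fibroblasts and Wnt signalling had 0 calls at the brightest probe set of each gene, with medians between 0.02 and 0.19.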

How the data were processed

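For each of 14 arrays the authors deposited 1 log2 level per probe set. Per the submitters' processing notes these are RMA values, of a version not stated. RMA normalizes quantiles between arrays and compresses weak signals. The array named in the series' design is Murine U74Av2, but the 45101 probe sets carry the names of a later Affymetrix mouse array, through whose annotation genes were named. After 64 controls were left out, 45037 were tested. Of these, 34945 carried 1 gene symbol, 932 several and 9160 none, over 18193 genes.

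Groups came from the treatment labels. The test was that of limma 3.58.1 (R 4.3.3) on the 8 arrays of vehicle, E2, acolbifene and E2+acolbifene, which share 1 estimate of the spread, with Benjamini-Hochberg adjustment over all probe sets. Every adjusted p in the text comes from this fit, and the procedure was tested on simulated data. The number of arrays limits the precision. Named genes were the 15 largest called rises and 15 largest falls without overlap of the arrays, by the called probe set with the largest change, 5 and 5 for the other comparisons, and members of 28 pathway and 16 marker lists, by the brightest probe set. A further 4 lists were grouped by symbol after values were seen. The members and lists were chosen with earlier results of these data known. Arrays with the same replicate number did not deviate together (correlations of deviations from -0.123 to 0.117) and were not paired. Alternatives varied the arrays in the fit, the normalization, the filter on dim probe sets and the variance prior. For acolbifene against vehicle, fits without either or both E2 arrays and the fit of 14 arrays with the code gave the same counts. The fits without either E2+acolbifene array also matched each other, so the 17 alternatives are not all separate.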

Additional observations from a re-analysis of the deposited data

Results flagged for a closer look

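The difference between acolbifene with and without E2 was tested itself, as (E2+acolbifene minus E2) minus (acolbifene minus vehicle), in the same limma fit. It passed at 2011 of 45037 probe sets (4.47%), 697 positive and 1314 negative. This contrast holds the vehicle and acolbifene arrays that chose the named genes, so a difference of the opposite sign to the change against vehicle is not independent of that choice.

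Among the genes named for the largest rises, the acolbifene effect was lower in the presence of E2 by these log2 differences: Myh1 (-2.23), Serpinb2 (-2.22), C1qtnf3 (-2.19), Arg1 (-1.33), Cxcl2 (-1.91), Fam107a (-1.11), Cxcl5 (-1.66) and Col12a1 (-1.36). The same held for Thbs1 (-1.82), Mup10 (-2.07), Fkbp5 (-1.20), Cxcl3 (-0.98), Chl1 (-1.46), Ldb3 (-1.53) and Clec4d (-1.20). The smallest limma adjusted p-values among them were 0.000331 for Thbs1 and 0.000423 for Serpinb2.

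Among the genes named for the largest falls, the difference was positive for Prol1 (1.40), Dbp (0.98), Csnk2a1 (0.95), Mtarc1 (0.95), Tomm7 (0.66) and Ncan (1.07). It was also positive for Npr3 (0.86), Krtdap (1.06), Mmd (0.79), Fam25c (0.89), Smim4 (0.55) and Ndufs5 (0.81). By group means, with no test, E2 alone lay on the same side of vehicle as acolbifene for all genes named here except Cxcl5, Cxcl3 and Krtdap, and further from it than acolbifene for Myh1, Thbs1, Ldb3, Prol1, Mtarc1 and Ncan.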

How the results depend on the processing

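The number of probe sets called for acolbifene against vehicle, 269, became 110 with only the 4 arrays of the comparison, 1437 with a prior that follows intensity and 706 after dim probe sets were dropped, and lay between 27 and 194 when single arrays were left out. For acolbifene against E2, 1922 became 215 when 14 arrays were fitted and the code was a covariate, which gave the same counts as leaving out E2 array 1, and 3679 with the trend, and 215 to 1407 without single arrays. For E2+acolbifene against acolbifene, 4142 became 2303 with the replicate block, 1154 under quantile normalization again and 7219 with the trend, and 38 to 3367 without single arrays. For the difference of the acolbifene effects, 2011 became 1113 in that fit of all 14 arrays, 1193 with the replicate block, 1120 under quantile normalization again, 3153 with a common median (495 positive and 2658 negative) and 4176 with the trend, and 186 to 1444 without single arrays. Where an arm was left with 1 array, it was assumed to vary like the other groups; these fits have fewer arrays and the filter fewer probe sets, and otherwise the cause was not tested. With the replicate block, acolbifene against vehicle had 188 calls and acolbifene against E2 1369; the numbers do not pair the samples. Of the 30 genes named for acolbifene against vehicle, 10 stayed called in every alternative that tested them, and 0 reversed. When single arrays were left out, calls ranged from 2 to 13 for glucocorticoid-responsive genes, 2 to 6 for collagens and matrix, 1 to 4 for matrix proteases, 0 to 4 for respiratory chain genes, 0 to 3 for macrophage and for skin markers, 1 to 3 for neutrophil markers and for neutrophil-attracting CXC chemokines, and 0 to 2 for GTPases and cholesterol synthesis. List medians stayed within the spread between arrays in 301 of 384 alternative values and moved beyond it in 83. Changes of sign were not counted, and some medians near 0 did change sign. That of adipokines and the C1q/TNF family, 0.05, ranged from -0.02 to 0.04 when single arrays were left out. Scalings of list medians were chosen after seeing the data. Signals below the 40th percentile of level are compressed, which limits folds from dim levels.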
